A study of Mus musculus with 20 samples.

Results

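The regions described here are 634 weak CTCF binding regions of mouse embryonic stem cells that were called in every CTCF peak list of the series. Peaks of the 4 deposited CTCF lists were merged into 54729 regions where they overlapped by at least 1 bp, and 32740 of these held a peak in all 4 lists and are called shared. Each peak was ranked within its own list by the score the authors gave it, as a percentile from 0 (lowest) to 100 (highest). The 634 members are the shared regions with a percentile below 25 in both lists from cells without thymine DNA glycosylase (TDG). They made up 1.94% of the shared regions and 1.16% of all regions. The members were thus chosen by their percentiles in the TDG KO lists, which are given as a description with no test.

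CTCF is a zinc finger protein that binds a long, GC-rich DNA sequence and, together with the ring-shaped cohesin complex, anchors chromatin loops and the borders of chromatin domains. Sites with a poorer match to its consensus are bound less often, and methylation of cytosines in the site can hinder binding. TET enzymes oxidise 5-methylcytosine stepwise as far as 5-carboxylcytosine, and TDG cuts the last oxidised forms out of DNA, so cells without TDG retain them. The series title concerns 5-carboxylcytosine and binding of CTCF to suboptimal sequences.

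The TDG KO group consisted of embryonic stem cells of a 129 background lacking TDG, and the WT group of wild-type control cells of the same background. Cells of both genotypes were grown with LIF and serum on mitotically arrested mouse embryonic fibroblasts, which were then depleted by serial plating. CTCF chromatin immunoprecipitation with sequencing and polyadenylated RNA-seq were each measured in 2 TDG KO and 2 WT libraries. The sources do not say whether a genotype is a single clone or whether replicates were separate cultures, so a difference between genotypes is also one between the lines used. The p-values cover no more than the variation among the libraries at hand, which may be technical.

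The TDG KO lists held 48514 and 48833 peaks, and the WT lists held 38303 and 37099. Tdg RNA was 5.50 and 4.74 FPKM in TDG KO libraries, against 28.1 and 30.4 FPKM in WT libraries, where FPKM is fragments per kilobase of transcript scaled by mapped fragments. The stem cell factors Pou5f1, Sox2, Nanog, Zfp42 and Esrrb were at 115.5 FPKM or more in every library. The 28 fibroblast markers summed to 1015 and 1103 FPKM in TDG KO libraries and to 1235 and 933 FPKM in WT libraries. Of the 26 fibroblast markers tested, 3 were higher and 15 lower in TDG KO (beside 24.4% higher and 29.5% lower of all tested genes), none of the 28 was listed at 0 in every library, and the part of feeder cells in any result below was not tested. In such bulk samples, fewer cells of a type and less RNA per cell cannot be told apart.

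The DNA of the members can be read where a RefSeq promoter window, which runs from 250 bases before to 50 bases after a gene start, falls on them. Such windows shared at least 200 bases with 12 members. Printed first, as examples of members at promoters, are the 4 of these 12 that had the highest lower WT percentile. After them come the 4 whose highest percentile over all 4 lists was lowest. The first 4 were chosen on WT alone and are not the stronger ones in TDG KO throughout. Each sequence is the part of the window inside the region, on the strand of the gene, from RefSeq for build GRCm38.p6 (mm10). Capitals mark matches on either strand to AGGNGGC, a form of the middle of the CTCF consensus. Other forms were not searched for and are not marked.
Gnas (chr2:174284070-174284353, plus strand): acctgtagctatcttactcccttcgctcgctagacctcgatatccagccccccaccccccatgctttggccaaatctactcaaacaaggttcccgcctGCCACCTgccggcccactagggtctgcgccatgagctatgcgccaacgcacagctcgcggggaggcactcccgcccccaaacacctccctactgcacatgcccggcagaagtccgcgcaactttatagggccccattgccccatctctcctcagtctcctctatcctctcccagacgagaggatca
Tomm22 (chr15:79670671-79670889, plus strand): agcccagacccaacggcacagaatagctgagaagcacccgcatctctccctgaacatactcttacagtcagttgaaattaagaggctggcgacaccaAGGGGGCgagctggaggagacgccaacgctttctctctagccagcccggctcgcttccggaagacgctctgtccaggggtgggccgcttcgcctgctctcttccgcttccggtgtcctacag
Dcaf10 (chr4:45341879-45342150, plus strand): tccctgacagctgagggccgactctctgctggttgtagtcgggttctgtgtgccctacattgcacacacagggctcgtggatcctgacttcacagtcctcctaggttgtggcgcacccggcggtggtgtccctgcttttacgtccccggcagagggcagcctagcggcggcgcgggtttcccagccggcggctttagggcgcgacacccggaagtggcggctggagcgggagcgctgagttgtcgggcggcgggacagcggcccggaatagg
Ggt7 (chr2:155514797-155515063, minus strand): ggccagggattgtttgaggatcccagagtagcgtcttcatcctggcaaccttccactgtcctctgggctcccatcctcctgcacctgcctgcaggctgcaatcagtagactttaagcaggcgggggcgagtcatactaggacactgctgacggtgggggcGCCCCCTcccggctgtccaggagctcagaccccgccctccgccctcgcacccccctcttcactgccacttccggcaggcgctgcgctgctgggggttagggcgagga
Ripk1 (chr13:34002113-34002405, plus strand): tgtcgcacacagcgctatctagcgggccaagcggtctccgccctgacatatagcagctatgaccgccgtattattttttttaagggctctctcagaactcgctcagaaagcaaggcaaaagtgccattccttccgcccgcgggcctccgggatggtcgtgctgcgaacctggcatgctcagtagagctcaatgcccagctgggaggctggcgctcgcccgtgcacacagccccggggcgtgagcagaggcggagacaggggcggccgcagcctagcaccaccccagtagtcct
Tmem242 (chr17:5440307-5440510, minus strand): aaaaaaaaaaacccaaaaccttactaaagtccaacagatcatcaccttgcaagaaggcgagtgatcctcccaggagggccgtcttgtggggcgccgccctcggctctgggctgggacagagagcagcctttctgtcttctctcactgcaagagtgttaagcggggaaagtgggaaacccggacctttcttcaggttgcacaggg
Kcnk15 (chr2:163853500-163853783, plus strand): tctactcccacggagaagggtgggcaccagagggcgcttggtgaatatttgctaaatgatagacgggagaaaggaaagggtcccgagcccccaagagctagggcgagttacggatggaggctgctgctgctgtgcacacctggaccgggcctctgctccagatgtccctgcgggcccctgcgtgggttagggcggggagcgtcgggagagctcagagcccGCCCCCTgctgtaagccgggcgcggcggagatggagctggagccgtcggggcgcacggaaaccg
Tmem138 (chr19:10577337-10577574, minus strand): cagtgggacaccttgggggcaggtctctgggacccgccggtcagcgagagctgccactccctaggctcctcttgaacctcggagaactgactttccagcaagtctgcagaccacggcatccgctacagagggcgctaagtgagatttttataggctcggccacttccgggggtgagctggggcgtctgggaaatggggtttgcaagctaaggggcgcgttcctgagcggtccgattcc

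Of the first 4 sequences, those at Gnas, Tomm22 and Ggt7 held a match and that at Dcaf10 did not. Of the other 4, only the sequence at Kcnk15 held one. The near match AGAGGGC, which was not searched for, can be read at Dcaf10, Tmem138 and Kcnk15, so a sequence without AGGNGGC may hold another form. Tomm22 carried its match on the strand of the gene and the other genes on the opposite strand. Over the 12 members, AGGNGGC occurred in the whole 300-base window of 6 (50%). Windows with at least 200 bases in another shared region numbered 929, of which 61.1% held it, and over all 32851 windows of the same length 29.4% did. Methylation in mammals falls mainly on the cytosine of CpG dinucleotides. The median window of the 12 members held 21 of them, against 18 at other shared regions and 7 over all windows. Windows of the 31 regions that were weak in both WT lists only held AGGNGGC in 38.7%, with a median of 15 CpG. A match is a description and not a binding site, its absence says only that the letters are not in the window, and 12 windows are too few to place the members among these sets.

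The members were weak in WT cells too, although the rule did not use the WT percentiles beyond the presence of a peak. Their median percentile was 17.3 and 17.0 in the TDG KO lists and 13.6 and 12.2 in the WT lists. The remaining 32106 shared regions had medians of 66.7 and 67.0 in the TDG KO lists and of 57.8 and 56.3 in the WT lists. Of the members, 446 (70.3%) were below 25 in both WT lists as well, 152 were below 25 in 1 of them, and 36 were at 25 or above in both. A set of 2619 shared regions was weak in both WT lists but not in both TDG KO lists. These had medians of 35.4 and 36.9 in the TDG KO lists and 15.2 and 13.1 in the WT lists. The members thus made up 14.6% of the 3065 shared regions that were below 25 in both WT lists.

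**Figure D1:**
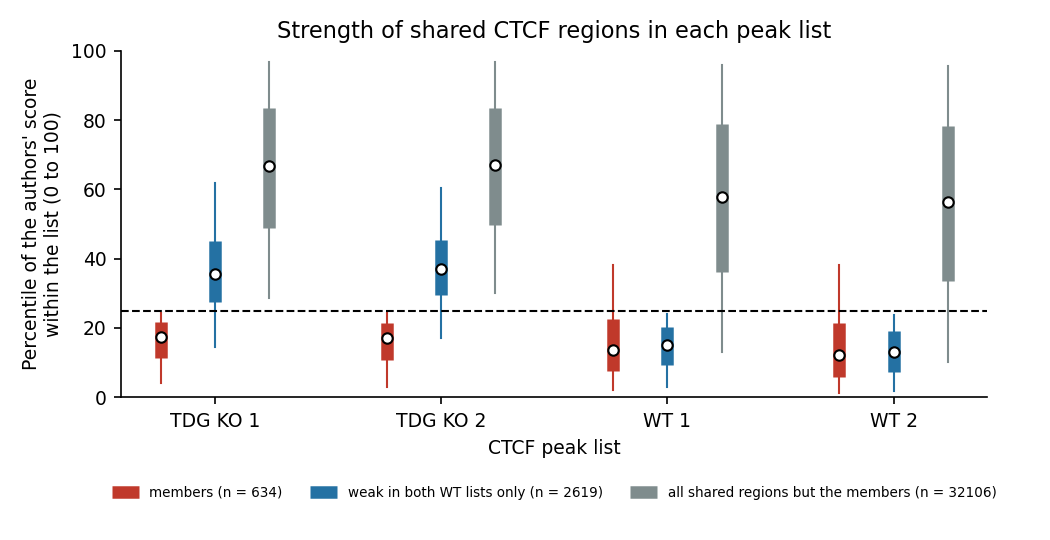
Percentile of the authors' score (vertical axis, 0 to 100) in each TDG KO and WT peak list, for the 634 members, for 2619 shared regions weak in both WT lists only, and for all 32106 shared regions but the members, which include those 2619. Circles are medians, thick bars the quartiles, thin lines the 5th to 95th percentile of regions and the dashed line the limit of 25; members sit low in all 4 lists, at medians of 17.3 and 17.0 in TDG KO and 13.6 and 12.2 in WT.

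The plot of percentiles by list shows the members as the low end of the shared regions in every list. The lists differ in length, and a low percentile in a longer list is not the same rank among shared regions. Ranked only among the 32740 shared regions, whose number is the same in every list, the median member stood at 2.02 and 1.67 in the TDG KO lists and at 6.23 and 7.16 in the WT lists. On that scale both WT ranks lay above both TDG KO ranks in 398 members (62.8%, beside 20.2% of all shared regions). The rule asked for low values in TDG KO only, so nothing is read from this share. With 2 lists against 2, the smallest p of an exact permutation test is 0.333, and no p-value is given for the lists.

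The choice by 1 TDG KO list can be read in the other. The 1583 shared regions below 25 in TDG KO list 1 had a median of 28.5 in list 2, and 40.1% of them were below 25 there. The 1364 shared regions below 25 in TDG KO list 2 had a median of 25.9 in list 1, and 46.5% were below 25 there. Within the members, the percentiles of TDG KO lists 1 and 2 had a Spearman correlation of 0.206 across regions, and those of WT lists 1 and 2 of 0.228. Over all shared regions these correlations were 0.844 for TDG KO and 0.7995 for WT. The rule cut the range of the members, and regions of a list share its library, so the correlations are a description.

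At the limit of 25, the members just inside were chr8:18948428-18948935, in Xkr5, and chr9:56179892-56180113. The region in Xkr5 stood at 24.97 and 19.4 in the TDG KO lists and at 24.98 and 17.9 in the WT lists. The region on chromosome 9 stood at 24.6 and 24.95 in TDG KO and at 7.23 and 25.6 in WT. Just outside lay chr10:18909376-18909654 and chr3:116577397-116577647, both at 25.0015 in TDG KO list 1. The first stood at 19.7 in TDG KO list 2 and at 28.1 and 28.0 in WT, and the second at 22.7 in TDG KO list 2 and at 25.8 and 25.6 in WT. The regions on either side of the limit thus had like values, and the limit marks no gap.

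The 4 members with the lowest maximum over all lists each lay over 10 kb from a gene start. The lowest was chr9:22202753-22202957, at 4.70 and 0.858 in TDG KO and 0.151 and 2.997 in WT. Next came chr9:82644098-82644331, at 1.09 and 0.759 in TDG KO and 4.77 and 2.76 in WT, which lay 148608 bp from the nearest other shared region. Members inside genes were chr4:146994589-146994804, in Rex2, at 4.44 and 4.504 in TDG KO and 5.87 and 4.06 in WT, and chr4:11242464-11242667, in Ints8, at 1.85 and 5.69 in TDG KO and 6.48 and 0.828 in WT. Ints8 encodes a subunit of the Integrator complex, which processes small nuclear RNA. Of all members, 16 stood below 10 in every list.

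Peaks at the members were narrower than at the other shared regions, as they were in other sets of weak regions. Their median width was 216 and 209 bp in the TDG KO lists and 195 and 192 bp in the WT lists. At the other shared regions the medians were 335 and 317 bp in TDG KO and 281 and 267 bp in WT. Regions weak in both TDG KO lists with a peak in 1 WT list had medians of 205 and 197 bp in TDG KO. Regions weak in both WT lists only had medians of 194 and 189 bp in WT. Narrow peaks were thus not particular to the members. Members held a single peak in each list in 630 of 634 cases. The median distance to the nearest other shared region was 15.8 kb for a member and 11.9 kb for another shared region, 29 members (4.57%, against 7.38%) lay within 1 kb of another shared region, and 33 (5.21%, against 6.39%) lay over 100 kb from one.

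Close to 3 in 10 members lay near a gene start, a share like that of the other shared regions, and nearly 2 in 3 were centred inside a gene. For 7589 genes without a listed start, either end counted as a start. A start lay within 5 kb of 183 members, which is 28.9% (exact 95% binomial interval 25.4 to 32.6, counting error only), against 29.3% of the other shared regions. Within 1 kb the shares were 10.9% and 11.4%, and within 10 kb they were 43.2% and 44.6%. With listed starts only, 21.0% of 620 members had a start within 5 kb. That share was not taken for the other shared regions, so the likeness holds for the wider definition alone. The centre lay inside a gene in 410 members, or 64.7% (60.8 to 68.4), against 56.8% of the other shared regions (56.3 to 57.4), 56.4% of those weak in both WT lists only (54.5 to 58.3) and 54.5% of the regions called in TDG KO lists alone. Regions weak in both TDG KO lists with a peak in 1 WT list had 60.3% (57.8 to 62.7), an interval that overlaps that of the members. Regions are not replicates of a condition, so these shares carry no test. Members both between genes and over 5 kb from a start made up 25.9%, against 31.7%. Exons and introns were not told apart. Of the annotated genes, 11 held more than 1 member, among them Hira, which encodes a chaperone of histone H3.3, Gpc6, which encodes a cell surface glypican, and Pcsk2, which encodes a prohormone convertase. These 3 were named after their values were seen.

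The members were not spread evenly over chromosomes. On chromosome 11 only 1 of 2278 shared regions was a member (0.0439%), and on the X 34 of 690 were (4.93%), while the other autosomes held 1.41% to 2.66%. None of the 22 shared regions of the Y was a member. The median shared region of chromosome 11 ranked at 82.4 and 70.6 among shared regions in TDG KO, against 47.0 and 55.6 in WT. On the X the median rank was 17.0 and 19.8 in TDG KO, against 30.5 and 30.3 in WT. Peak numbers differed as well, between lists of unlike length. Chromosome 11 held 4541 and 3779 peaks in the TDG KO lists and 2419 and 2676 in the WT lists, with TDG KO list 1 apart. The X held 1156 and 1259 in TDG KO and 1501 and 966 in WT, with WT list 1 apart. As a share of its list, chromosome 11 held 9.36% and 7.74% in TDG KO and 6.32% and 7.21% in WT. For the X these shares were 2.38% and 2.58% in TDG KO and 3.92% and 2.60% in WT. Without chromosome 11 and the X, 599 members remained.

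**Figure D2:**
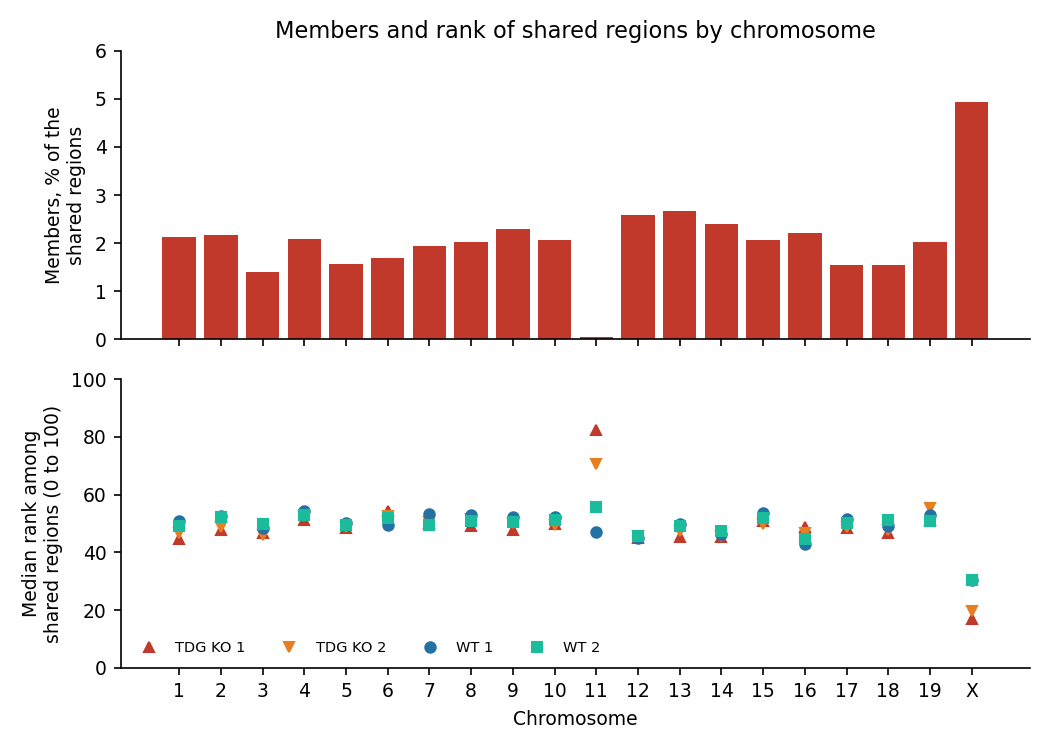
Upper panel, members as a percentage of the shared regions of each chromosome (Y not drawn). Lower panel, median rank of all shared regions of the chromosome in each TDG KO and WT list, 0 lowest and 100 highest; chromosome 11 has 0.0439% members and the highest TDG KO ranks, and the X has 4.93% members and the lowest ranks.

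In the plot by chromosome, the share of members is lowest where the TDG KO ranks are highest and highest where they are lowest. The rule used the TDG KO values, so this is a description of which regions it picked. Within the X, 10 of the 65 shared regions between 160 and 170 Mb were members (15.4%). The median shared region of that stretch ranked at 5.62 and 21.0 in TDG KO, against 91.0 and 79.3 in WT. High shares on autosomes were found on chromosome 12 from 20 to 30 Mb, with 9 of 116 shared regions (7.76%), and on chromosome 13 from 60 to 70 Mb, with 9 of 132 (6.82%). These windows were picked after their values were seen.

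The members that were highest in both WT lists lay at the far end of the X. All 5 members at 50 or above in both WT lists were on the X beyond 160 Mb. The 12 members on the X from 150 Mb had medians of 11.7 and 13.1 in TDG KO and of 47.2 and 53.4 in WT. The other 622 members had medians of 17.3 and 17.1 in TDG KO and of 13.4 and 12.2 in WT.

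**Figure D3:**
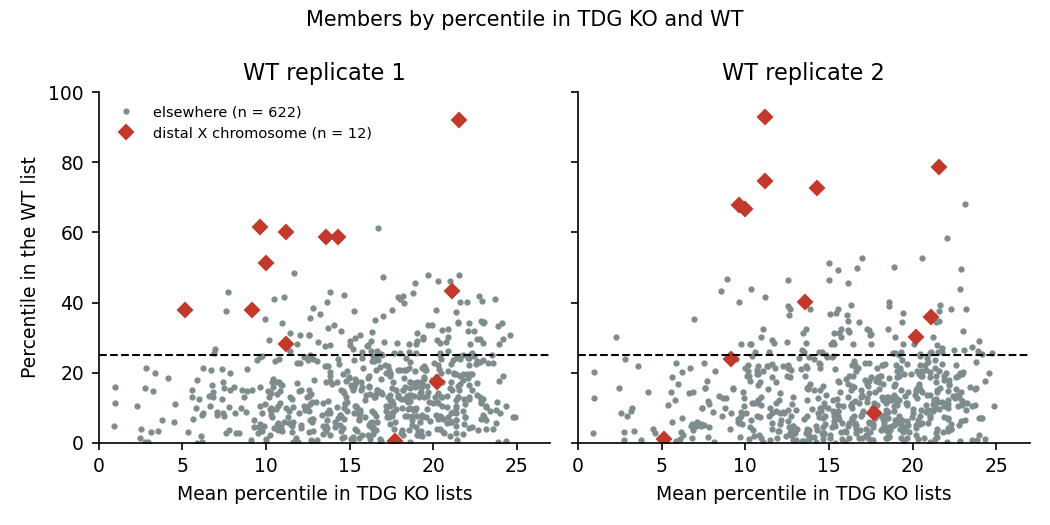
Mean percentile of each member in the TDG KO lists (horizontal axis, limited to below 25 by the rule) against its percentile in WT replicate 1 (left) and replicate 2 (right). Red diamonds are the 12 members on the X from 150 Mb and grey points the other 622; the diamonds reach highest in WT, with medians of 47.2 and 53.4 against 13.4 and 12.2, and the dashed line marks 25.

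In the plot of members in TDG KO against WT, part of these X regions stood above the cloud of weak regions. Elsewhere, 28 members were at 25 or above in both WT lists, with medians of 31.5 and 33.4 in WT. Of the 12 on the X from 150 Mb, 8 were, with medians of 58.6 and 70.2 in WT. The highest was chrX:166393736-166394328, inside Ofd1, at 20.1 and 23.0 in TDG KO and 92.1 and 78.6 in WT. Its peak was 197 and 259 bp wide in TDG KO, against 593 and 381 bp in WT. Ofd1 encodes a protein of centrioles and the base of cilia. The member inside Mid1, chrX:169883916-169884387, stood at 5.91 and 13.4 in TDG KO and 61.5 and 67.7 in WT and lay 4.30 kb from the start. Mid1 encodes a microtubule-bound ubiquitin ligase. The member inside Ctps2, an enzyme that makes cytidine triphosphate, was chrX:162949814-162950157 and stood at 11.8 and 10.7 in TDG KO and 60.1 and 92.8 in WT. The member inside Scml1, chrX:161826097-161826599, stood at 10.3 and 18.3 in TDG KO and 58.6 and 72.7 in WT. These 4 regions were taken for the highest lower WT percentile among regions that had to be below 25 in both TDG KO lists, so their order between the genotypes follows from the choice.

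RNA was not part of the rule and was tested for all genes with limma on log2(FPKM + 1), with Benjamini-Hochberg adjustment over 12035 genes and a threshold of 0.05. Ofd1 RNA was 7.88 and 7.81 FPKM in TDG KO, against 29.8 and 29.6 FPKM in WT, and fell by 1.80 on the log2 scale (SE 0.063, limma adjusted p = 7.23e-06). Mid1 RNA was 183.5 and 150.2 FPKM in TDG KO, against 535 and 471 FPKM in WT, and fell by 1.59 (SE 0.11, limma adjusted p = 9.72e-05). Ctps2 RNA was 19.3 and 19.4 FPKM in TDG KO, against 48.4 and 53.7 FPKM in WT, and fell by 1.36 (SE 0.070, limma adjusted p = 2.91e-05). Scml1 was near or at 0 in all libraries and was not tested. In each of the 3 tested genes both TDG KO libraries lay below both WT libraries. The CTCF order of these regions was set by their choice, so nothing is read from RNA and CTCF having the same direction. Most of the stretch moved the same way. Of the 64 tested genes of the X from 150 Mb, 47 (73.4%, beside 29.5% of all tested genes) were lower in TDG KO and 7 (10.9%, beside 24.4%) higher. The part of this stretch in these results was not tested.

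Among genes near members, more were lower than higher in TDG KO, as among all tested genes in this fit. A start within 5 kb of a member was found for 234 genes, of which 181 were in the RNA table and 140 passed the filter of a mean of 1 FPKM. Of these 140, 68 were called (48.6%, beside 54% of all tested genes), 20 of them higher in TDG KO (14.3%, beside 24.4%) and 48 lower (34.3%, beside 29.5%). The median log2 change was -0.09, against -0.04 over all tested genes. Without WT replicate 2, 31 of 139 tested genes near members were called lower (22.3%), beside 21.0% of all genes tested in that fit, so these shares were then close. Of 381 matched genes whose body holds a member, 277 were tested, 37 (13.4%) were higher and 108 (39.0%) lower. Among 3809 tested genes near another shared region and no member, 28.1% were higher and 26.3% lower. Among 341 near a region weak in both WT lists only, 33.1% were higher and 25.8% lower.

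**Figure D4:**
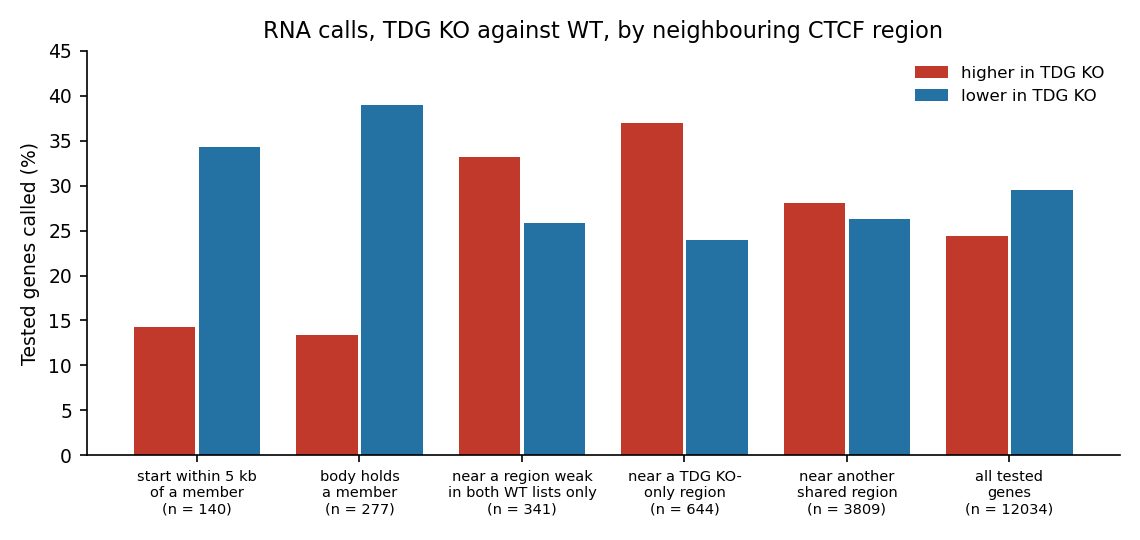
Percentage of tested genes called higher (red) or lower (blue) in TDG KO than in WT, by the CTCF region near the gene; n is the number of tested genes with distinct symbols. Genes near members are called higher in 14.3% and lower in 34.3%, against 24.4% and 29.5% of all tested genes; the sets share libraries and carry no test.

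The plot of calls by neighbouring region shows the lowest percentages of higher calls in the 2 sets of genes at members. Chromosome 11 bears on this comparison, since 66.9% of its 960 tested genes were higher in TDG KO and 5.31% lower, and it holds a single member. Without chromosome 11, 13.7% of the genes near members were higher and 34.5% lower, against 20.8% and 31.6% of all other tested genes. The gap in higher calls was thus narrower without it. Genes are not replicates, and nothing particular to the members is read from these shares.

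About 3 in 4 genes near members were expressed in every library. Of the 181 in the table, 77.3% and 77.9% reached 1 FPKM in TDG KO libraries and 76.8% and 77.3% in WT libraries. Of 6605 genes near another shared region and no member, 58.2% and 58.0% did in TDG KO libraries and 56.8% and 56.0% in WT libraries. The median level of the genes near members was 8.70 and 8.91 FPKM in TDG KO and 9.65 and 9.97 FPKM in WT. Near regions weak in both WT lists only, 58.0% and 57.5% of 597 genes reached 1 FPKM in TDG KO libraries and 55.9% and 55.3% in WT libraries.

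Called genes near a member with a mean of at least 5 FPKM and groups that did not overlap numbered 18 higher and 41 lower in TDG KO. The same count over all tested genes was not taken, so no lean towards lower genes is read from these numbers. In a fit of only genes with a mean of at least 5 FPKM, 112 near members were tested. Of these, 16.1% were higher (beside 24.1% of all genes in that fit) and 38.4% lower (beside 34.3%). The furthest higher was Pim2, a kinase that promotes cell survival, at 24.2 and 26.5 FPKM in TDG KO and 8.47 and 9.55 FPKM in WT, a log2 change of 1.40 (SE 0.083, limma adjusted p = 4.91e-05). Its member, chrX:7879886-7880236, lay 1.58 kb from the start and stood at 22.2 and 15.3 in TDG KO and 6.48 and 4.73 in WT. Both TDG KO percentiles were thus above both WT percentiles. The TDG KO lists are longer, so these need not be higher ranks among shared regions. Next came 2310039H08Rik, at 8.99 and 9.12 FPKM in TDG KO and 3.69 and 3.97 FPKM in WT (log2 change 1.06, SE 0.078, limma adjusted p = 0.000115). Bcar1, an adaptor of integrin signalling, was at 17.2 and 18.1 FPKM in TDG KO and 10.2 and 10.6 FPKM in WT (log2 change 0.71, SE 0.069, limma adjusted p = 0.000322). Its member, chr8:111739564-111739864, stood at 5.97 and 21.6 in TDG KO and 42.9 and 24.4 in WT, the reverse order to its RNA. Vars2, the mitochondrial valyl-tRNA synthetase, was at 16.5 and 14.9 FPKM in TDG KO and 9.80 and 9.26 FPKM in WT (log2 change 0.67, SE 0.077, limma adjusted p = 0.000665).

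The single member of chromosome 11, chr11:84914689-84915021, lay inside Znhit3, which encodes a zinc finger HIT protein, and stood at 24.7 and 21.4 in TDG KO and 7.31 and 20.1 in WT. Znhit3 RNA was 73.1 and 81.4 FPKM in TDG KO, against 44.9 and 46.9 FPKM in WT (log2 change 0.74, SE 0.072, limma adjusted p = 0.000342). The other higher genes named by the rule were Rps6ka1, a ribosomal S6 kinase, Tpgs1, a subunit of tubulin polyglutamylase, Ggct, a glutathione cycle enzyme, Fyttd1, an mRNA export adaptor, Znhit1, a subunit of the SRCAP chromatin remodeller, Ptpn23, a factor of endosomal sorting, and Swap70, an actin-binding signalling protein. Their log2 changes lay between 0.33 and 0.44. In each of them both TDG KO libraries lay above both WT libraries. The calls of Tpgs1 and Ggct were lost without TDG KO replicate 2 or WT replicate 1, and that of Fyttd1 without TDG KO replicate 1 or WT replicate 2, with limma adjusted p of 0.0511 to 0.0898 in those fits. All 3 calls were also lost with no filter on FPKM (limma adjusted p of 0.0559 to 0.083).

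**Figure D5:**
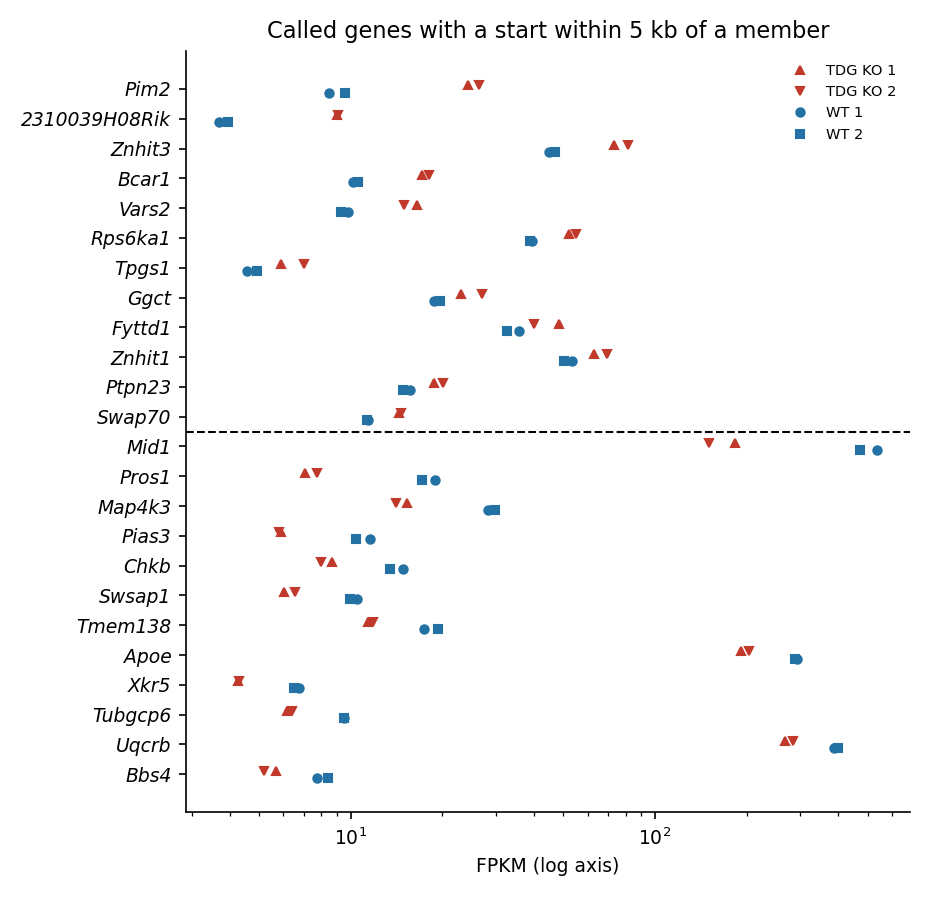
FPKM (log axis) of the 12 highest (above the dashed line) and 12 lowest called genes near a member in each TDG KO (red) and WT (blue) library. TDG KO and WT symbols do not overlap in any gene, which the choice of genes required; Pim2 and Mid1 are the furthest apart upward and downward.

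The plot of named genes shows both genotypes apart at every gene. Xkr5, whose member lies just inside the limit, was among the low ones at 4.26 and 4.31 FPKM in TDG KO and 6.77 and 6.52 FPKM in WT, and Mid1 was the highest in WT. After Mid1, the furthest lower was Pros1, which encodes the anticoagulant protein S, at 7.09 and 7.77 FPKM in TDG KO and 18.96 and 17.1 FPKM in WT (log2 change -1.17, SE 0.082, limma adjusted p = 9.83e-05). Map4k3, a kinase of nutrient signalling, was at 15.3 and 14.1 FPKM in TDG KO and 28.3 and 29.9 FPKM in WT (log2 change -0.94, SE 0.071, limma adjusted p = 0.00013). The members at both genes were weak in every list. At Pros1, chr16:62858130-62858394 stood at 15.7 and 20.5 in TDG KO and 2.91 and 7.72 in WT, and at Map4k3, chr17:80723153-80723397 stood at 11.4 and 19.7 in TDG KO and 6.82 and 17.6 in WT. By percentile, the genotypes did not overlap at Pros1, with TDG KO higher, and did overlap at Map4k3. The TDG KO lists are longer, so higher percentiles there need not be higher ranks among shared regions, and no order is read from them.

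Pias3, a SUMO ligase that restrains STAT3, was at 5.90 and 5.80 FPKM in TDG KO and 11.6 and 10.4 FPKM in WT (log2 change -0.80, SE 0.080, limma adjusted p = 0.000356). Apoe, the apolipoprotein of cholesterol transport, was at 191.8 and 204.1 FPKM in TDG KO and 294 and 288 FPKM in WT (log2 change -0.55, SE 0.065, limma adjusted p = 0.000691). The Apoe start lay inside its member, chr7:19698135-19698411, which stood at 23.0 and 11.4 in TDG KO and 20 and 2.12 in WT. Tmem138, a ciliary membrane protein whose promoter is printed above, was at 11.4 and 11.8 FPKM in TDG KO and 17.4 and 19.4 FPKM in WT (log2 change -0.62, SE 0.076, limma adjusted p = 0.00084). Its member stood at 19.2 and 16.1 in TDG KO and 25.6 and 4.55 in WT, with the WT lists on either side of the TDG KO lists. The other lower genes were Chkb, a choline kinase, Swsap1, a factor of homologous recombination, Xkr5, Tubgcp6, a part of the gamma-tubulin ring, Uqcrb, a subunit of respiratory complex III, and Bbs4, a subunit of the ciliary BBSome. Their log2 changes lay between -0.70 and -0.50, with both TDG KO libraries below both WT libraries in each.

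Of the genes whose promoters are printed above, Gnas, Ripk1 and Tmem138 were called lower in TDG KO (beside 29.5% of all tested genes). Tomm22, Dcaf10 and Tmem242 missed the threshold. Ggt7, at 0.541 and 0.827 FPKM in TDG KO and 0.858 and 0.435 FPKM in WT, did not pass the filter and was not tested. RNA of Kcnk15 is not given here. RNA was measured per gene, so it cannot be assigned to the printed start. Gnas, an imprinted gene that encodes the stimulatory G protein alpha subunit, was at 120.8 and 126.4 FPKM in TDG KO and 155.9 and 151.8 FPKM in WT (log2 change -0.31, SE 0.061, limma adjusted p = 0.00516). Its region stood at 21.9 and 21.4 in TDG KO and 40.1 and 39.3 in WT. It was printed for its high WT percentiles and had to be below 25 in TDG KO, so that order follows from the choice. Ripk1, a kinase of cell death and inflammation, was at 5.13 and 4.87 FPKM in TDG KO and 6.399 and 6.99 FPKM in WT (log2 change -0.36, SE 0.082, limma adjusted p = 0.0101). Its region stood at 15.5 and 15.4 in TDG KO and 3.33 and 12.6 in WT. Tomm22, a receptor of mitochondrial protein import, was at 171.5 and 177.6 FPKM in TDG KO and 185.1 and 192.6 FPKM in WT and missed the threshold (limma adjusted p = 0.162). Its region stood at 22.5 and 7.54 in TDG KO and 29.1 and 36.6 in WT. Dcaf10 was at 3.33 and 3.20 FPKM in TDG KO and 3.73 and 4.42 FPKM in WT and also missed it (limma adjusted p = 0.0722). Its region stood at 11.47 and 17.8 in TDG KO and 42.2 and 16.1 in WT.

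Of all 34614 placed genes, 405 (1.17%) had a member within 10 kb of their start and 40.2% had any shared region there. The counts in the gene lists below are too small to be set apart from these shares. Of 23 placed genes of CTCF and cohesin, only Wapl, which releases cohesin from DNA, had a member within 10 kb, and 10 had any shared region there. Of 23 genes of DNA methylation and demethylation, only Gadd45a, a stress-induced factor linked to demethylation, had one, while 13 had any shared region. Of 33 placed imprinted genes, Gnas and Slc22a18, a transporter, had one, and 16 had any shared region. None of 24 Polycomb, 26 naive pluripotency, 18 primed epiblast, 24 germline or 28 fibroblast genes had one.

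Wapl lay 6.43 kb from chr14:34680359-34680602, which stood at 17.5 and 15.4 in TDG KO and 13.0 and 7.72 in WT. Wapl RNA was 54.9 and 49.5 FPKM in TDG KO, against 65.5 and 70.4 FPKM in WT (log2 change -0.37, SE 0.074, limma adjusted p = 0.00574). It was 1 of 14 lower and 3 higher genes among the 22 tested of CTCF and cohesin, whose median log2 change was -0.32, beside 24.4% higher and 29.5% lower over all tested genes. Gadd45a lay 1.56 kb from chr6:67038966-67039230, which stood at 6.04 and 8.98 in TDG KO and 15.5 and 22.8 in WT. Gadd45a RNA was 21.9 and 22.3 FPKM in TDG KO, against 26.1 and 28.4 FPKM in WT (log2 change -0.29, SE 0.068, limma adjusted p = 0.0111). It no longer passed when TDG KO replicate 1 was left out (limma adjusted p = 0.0532) or when WT replicate 2 was (limma adjusted p = 0.0787). In its list of 22 tested genes 6 were higher and 8 lower, beside the same shares over all tested genes.

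Slc22a18 lay 2.99 kb from chr7:143476775-143477033, which stood at 3.34 and 19.4 in TDG KO and 5.66 and 15.3 in WT, where the genotypes overlap. Slc22a18 RNA was 3.85 and 4.11 FPKM in TDG KO and 4.32 and 4.92 FPKM in WT (log2 change -0.17, SE 0.092, limma adjusted p = 0.155). Among 25 tested imprinted genes 12 were higher and 7 lower, with a median log2 change of 0.24. Beside the 24.4% higher and 29.5% lower over all tested genes, Gnas was thus among the fewer lower genes of its list.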

How the data were processed

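CTCF binding was taken from 4 peak lists, 1 per library, each holding a score for every peak as the authors deposited it. No source at hand defines this score, so it served only to rank peaks inside a list. Tools named in the submitters' processing notes are deepTools, MACS2 2.2.1 and Bowtie2 2.2.9, besides Cuffdiff, Cufflinks 2.2.1 and TopHat2 2.1.1, with build mm10. Per the file headers, the authors deposited FPKM per gene and library, which were put on a log2 scale here. The authors' deposited comparison of the genotypes, with its log2 fold, p-value and q-value columns, was not used. No file gives counts, so depth is unknown; 20537 to 21776 genes per RNA library were above 0. Strand use is not given, so reads of overlapping genes cannot be told apart.

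Here RNA was fitted with limma 3.58.1 (R 4.3.3, trend) on log2(FPKM + 1), for genes with a mean of at least 1 FPKM; this scale understates changes of low genes. Tests were 2-sided. The steps were tested on simulated data. The rule named the 4 members with the highest lower WT percentile, the 4 with the lowest maximum over all lists, those at the limit, list genes within 10 kb, and called genes near members, 12 from either end of the log2 changes, with a mean of at least 5 FPKM and groups apart. Starts came from the RefSeq promoter table, otherwise from either end of a gene. No promoter window lay wholly inside a member, as the plan asked, so at least 200 shared bases were required, a choice made after seeing the data. The members and gene lists were chosen with earlier results of these data known. RNA polymerase II, IgG and input libraries were not used here.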

Additional observations from a re-analysis of the deposited data

How the results depend on the processing

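The number of members followed the limit and the ranking: 634 became 295 at a limit of 20, 1192 at 30, 6052 when percentiles were taken among shared regions, 2285 when each list was cut to the strongest peaks of the shortest list, and 1318 to 1655 when a list was left out (1488 without TDG KO list 1, 1655 without TDG KO list 2, 1318 without WT list 1 and 1535 without WT list 2), since fewer lists then had to hold a peak or a low score. The mean of the median WT percentiles was 12.9, against 14.8 at 30, 14.1 among shared regions, 21.8 with the strongest peaks and 10.8 to 16.6 without a list. A start within 5 kb held for 28.9%, against 24.7% with the strongest peaks, 10.9% at 1 kb, 43.2% at 10 kb and 21.0% with listed starts only (chosen after seeing the data). Leaving out a list gave 26.02% to 31.1%. Centres lay inside genes in 64.7%, against 59.0% among shared regions, 57.2% with the strongest peaks and 59.6% to 64.6% without a list. The mean of the median widths was 203 bp, against 229.8 bp among shared regions and 229.5 bp with the strongest peaks.

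Of genes near members 20 were higher and 48 lower in TDG KO. Of 140 tested, 20 higher is 14.3% (24.4% over all tested genes) and 48 lower is 34.3% (29.5%). Against the same shares over all genes, the counts were 7 and 20 of 55 at 1 kb (12.7% and 36.4%), 31 and 73 of 214 at 10 kb (14.5% and 34.1%), 9 and 24 of 64 at a limit of 20 (14.1% and 37.5%), and 33 and 79 of 228 at 30 (14.5% and 34.6%). Leaving out a library gave 14 to 20 higher, or 9.93% to 14.3% (18.7% to 20.7% over all genes in those fits), and 31 to 41 lower, or 22.3% to 29.5% (21.0% to 24.0%). The share at or above 1 FPKM was 77.3%, against 80.9% at 1 kb, 68.2% at 10 kb and 71.9% at a limit of 30, all chosen after seeing the data. With a replicate block, 21 of 140 were higher (15%, beside 25.2% of all genes in that fit) and 51 lower (36.4%, beside 30.5%). No source pairs the numbers, and same-numbered RNA libraries did not deviate together (r = -0.0157). Of 369 single-gene results 354 kept their direction and side of the threshold, 14 lost the call, 1 gained it and 0 reversed. The genes named from either end of the log2 changes had to be called with groups apart in these same libraries. Leaving out a library could thus not reverse them. The causes were not tested. Read depth is unknown, so no counting error can be given for a percentile or an FPKM value.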
